A study of Cricetulus griseus with 40 samples.

Results

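The genes described here are those of the proteasome, the protease that degrades ubiquitin-tagged proteins, in CHO-S cells. CHO-S cells derive from Chinese hamster ovary, grow in suspension and serve as hosts for recombinant protein production. Members were all genes whose symbol starts with Psma, Psmb, Psmc, Psmd, Psme, Psmf or Psmg, which gave 48 genes in the files. Of these, 47 had at least 1 FPKM (fragments scaled to transcript length and library size) in at least 4 of the 40 libraries. They are 47 of 12259 genes that met this minimum, out of 26793 gene IDs in all. The 48th, Psmb11, the thymus-specific catalytic subunit, was listed at 0 in all 40 libraries. Psmd1 and Psmd3, subunits of the base and the lid, were not analysed here. A pair of the 47, Psmc3ip and Psme3ip1, carry a matching symbol but encode a meiotic recombination cofactor and a protein that binds PA28 gamma, not subunits.

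The study followed the transcriptome of a single culture condition over time. Cells grew in shake flasks in a chemically defined medium with L-glutamine, and no nutrient was fed after seeding. Samples were taken every 12 h from 72 h to 180 h, giving 10 times with 4 libraries each. Stranded messenger RNA libraries were read in pairs. Time after seeding is therefore all that separates the groups, and age of the culture, cell density and the state of the medium change with it and cannot be told apart. The labels do not say which library came from which flask, so the p-values rest on how far libraries of the same time lie apart, and some of that distance may be technical.

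The proteasome has a barrel-shaped core with outer alpha rings, which gate the entrance, and inner beta rings, which hold the active sites. Cells can swap the 3 standard catalytic subunits for inducible ones, typically under interferon, and the resulting immunoproteasome makes peptides suited to antigen presentation. A regulatory particle caps the core. Its base holds 6 ATPases that unfold the substrate, and its lid removes the ubiquitin chain. Other caps, the PA28 and PA200 activators, open the core without ATP. Dedicated chaperones assemble core and base. In many mammalian cells the transcription factor NFE2L1 raises subunit genes together when proteasome activity falls.

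The libraries were similar in size as far as FPKM show it. Relative depth, read from the steps of low values, ran from 0.821 to 1.24, and the absolute depth is unknown. Within times, 52.3% of the variation of all genes other than the 47 lay along 1 component, here called the within-time axis. Replicate 1 of 96 h and replicate 4 of 84 h stood farthest out, with scores of -2.65 and -2.37 SD. All other libraries lay on the axis between them and 1.60 SD, the score of replicate 1 of 84 h. From 84 h on, replicate 4 and replicate 1 took turns at the low end of the axis, replicate 4 in 5 of the times and replicate 1 in 4, so the replicate number was not independent of it. The part of this order in the results was not tested. The times also differed along this axis, with a mean place of -0.98 ± 0.87 (SD, n = 4) at 72 h and 0.02 ± 0.96 at 108 h. The 144 h libraries had a mean place of 0.70 ± 0.98 and those of 180 h one of 0.36 ± 0.95. Of the markers of other cell types, Myh6 and Foxl2 were not analysed here, and among the others only Alb met the minimum, with a highest value of 1.47 FPKM. The list of markers expected in CHO cells held Vim, Lgals1, Cd63 and the keratins Krt8 and Krt18. Vim, Lgals1 and Cd63 were abundant. Against the expectation, Krt8 and Krt18 did not meet the minimum and stayed below 0.0724 FPKM in all libraries.

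The most abundant members were core genes. Over the 40 libraries Psma7 had the highest mean (275 FPKM), ahead of Psma2 (246 FPKM), Psma6 (238 FPKM), Psmb4 (218 FPKM) and Psmb1 (213 FPKM). The spreads of these neighbours overlapped. Standard catalytic subunits were lower than the other genes of the standard core, at 55.4 FPKM for Psmb5, 57.0 FPKM for Psmb6 and 61.9 FPKM for Psmb7. Base and lid genes had means between 37.4 FPKM (Psmd11) and 139 FPKM (Psmd13). The lowest means were those of Psmc3ip (7.22 FPKM), the assembly chaperone Psmg4 (11.0 FPKM) and the inducible subunit Psmb10 (11.0 FPKM). Apart from 1 gene with a library below the minimum, Psmb10, every member reached 1 FPKM in all 40 libraries.

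**Figure D1:**
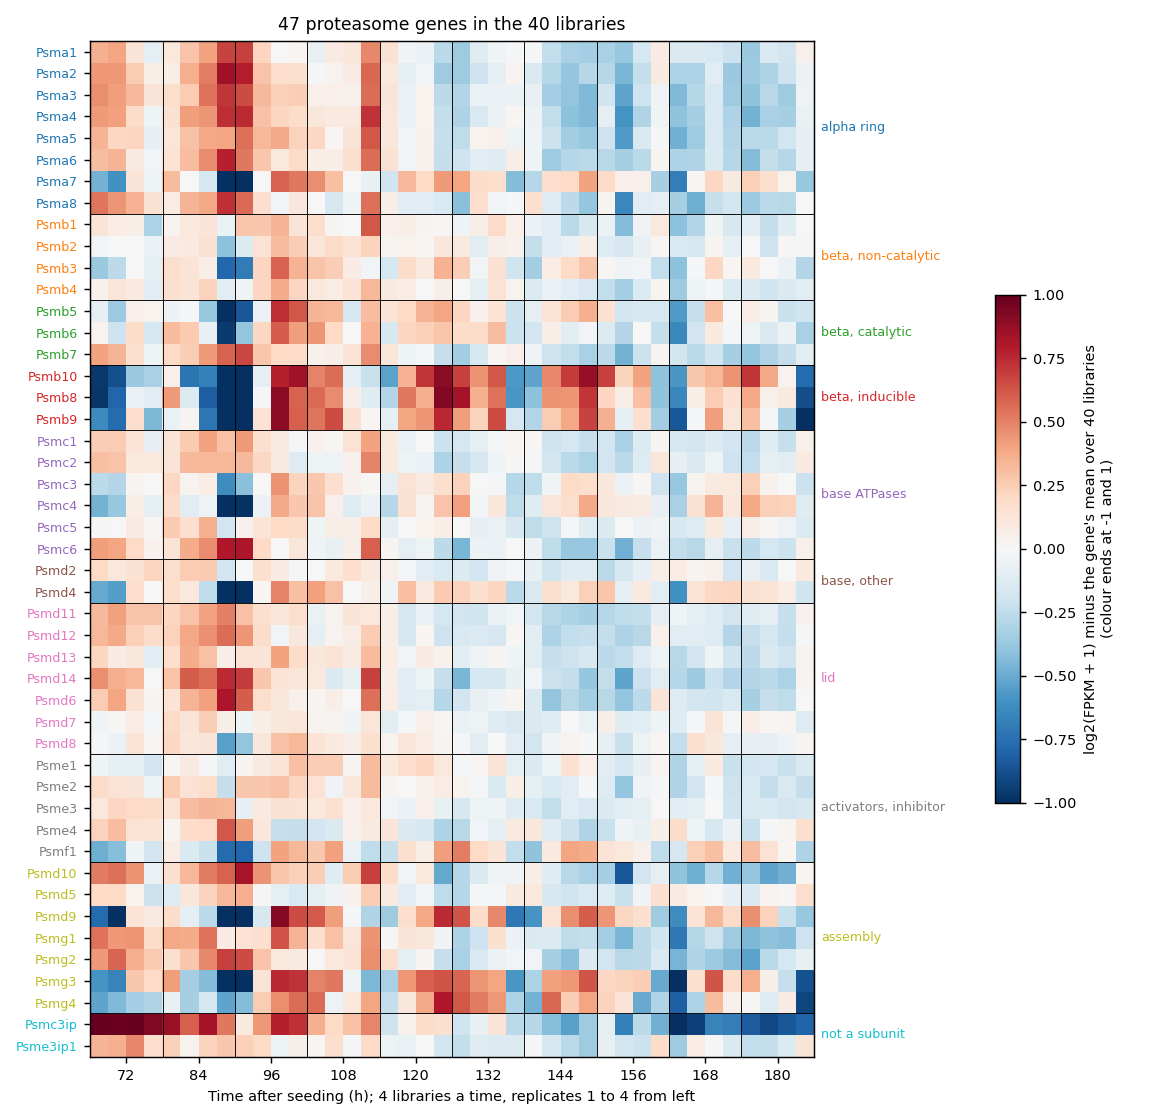
Each row is 1 of the 47 genes and each column 1 of the 40 libraries, ordered by time after seeding (h); colour gives log2(FPKM + 1) minus the gene's mean over the 40 libraries. Alpha ring, lid and several ATPase genes were mostly above their mean up to 108 h and below it from 144 h on, and replicate 4 of 84 h and replicate 1 of 96 h stood out in opposite directions for different genes.

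Summed over the 14 genes of the standard core (Psma1 to Psma7 and Psmb1 to Psmb7), FPKM at 72 h were 2616, 2579, 2557 and 2231 in replicates 1 to 4. The 96 h libraries held 2837, 2713, 2920 and 2772 FPKM, the 144 h libraries 2128, 2119, 2067 and 2156 FPKM, and the 180 h libraries 2058, 2065, 2083 and 2156 FPKM. Every 72 h and 96 h library was thus above every 180 h library, while 144 h and 180 h overlapped. At 108 h replicate 4 held 3139 FPKM and the other libraries 2460 to 2597 FPKM. All 48 genes together made up 0.903 ± 0.031% of all FPKM at 72 h and 0.722 ± 0.028% at 180 h (SD, n = 4). FPKM are shares of the RNA of pooled cells, so fewer expressing cells and less RNA per cell cannot be told apart.

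Of the 47 genes, 29 (61.7%) differed over the 10 times (adjusted p below 0.05, limma F-test on log2(FPKM + 1), Benjamini-Hochberg over all 12259 genes), against 49.9% of all genes tested. Between 72 h and 180 h, 24 members (51.1%) fell and 0 rose; among all genes, 33.5% fell and 15.8% rose. The median log2 change of the members was -0.22 and that of all genes -0.10. At unadjusted p below 0.05, 25 members were lower and 0 higher, against 36.5% and 18.6% of all genes. In 19 members every 180 h library lay below every 72 h library, as was so for 30.8% of all genes, and in 0 members every one lay above, against 15.2%. When libraries were rescaled by the median ratio of all genes, the median of all genes moved to 0.01 and that of the members to -0.08. With this scaling 14 members (29.8%) fell, against 24.4% of all genes. The share of members that fell was thus nearer that of all genes than without it, where it was 51.1% against 33.5%. Psmc4 alone rose, by 0.54 (adjusted p = 0.0419, limma), where 2696 of all 12245 genes tested rose.

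In the alpha ring, 7 of 8 genes fell from 72 h to 180 h, against 33.5% of all genes, with a median log2 change of -0.48. Psma3 stood at 217, 211, 197 and 173 FPKM in the 4 libraries of 72 h and at 119, 129.7, 123 and 152 FPKM in those of 180 h. All late values were below all early ones, and the log2 change was -0.61 ± 0.13 (SE, adjusted p = 0.000198). Psma4 fell from 233 ± 34.4 to 159 ± 19.4 FPKM (SD, n = 4), and Psma2 from 296 ± 35.4 to 204 ± 19.1 FPKM, again without overlap between the times. Psma5 and Psma6 fell by 0.37 and 0.43 on the log2 scale, but not past the test with median-ratio scaling. Psma1 fell least, by 0.36 (adjusted p = 0.0357), and its groups overlapped.

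Psma7 was the exception in the ring. Its values were 191, 175, 291 and 259 FPKM at 72 h and 314, 297, 273 and 205 FPKM at 180 h, which overlap widely. The log2 change was 0.26 ± 0.28 (SE), with a 95% interval of -0.32 to 0.84 (adjusted p = 0.463). In its lowest library, replicate 4 of 84 h, Psma7 stood at 121 FPKM, while Psma2, Psma3, Psma6 and Psma8 each had their highest of 40 values there. Psma8, the germ-cell paralog of Psma7 in mouse, stood at 42.9, 40.1, 37.5 and 32.7 FPKM at 72 h and at 22.5, 24.0, 23.9 and 29.1 FPKM at 180 h. That is a fall without overlap, with a log2 change of -0.60 ± 0.16 (SE, adjusted p = 0.00199). Reads shared by these paralogs may have been split between them by the authors' counting, so both values are uncertain.

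**Figure D2:**
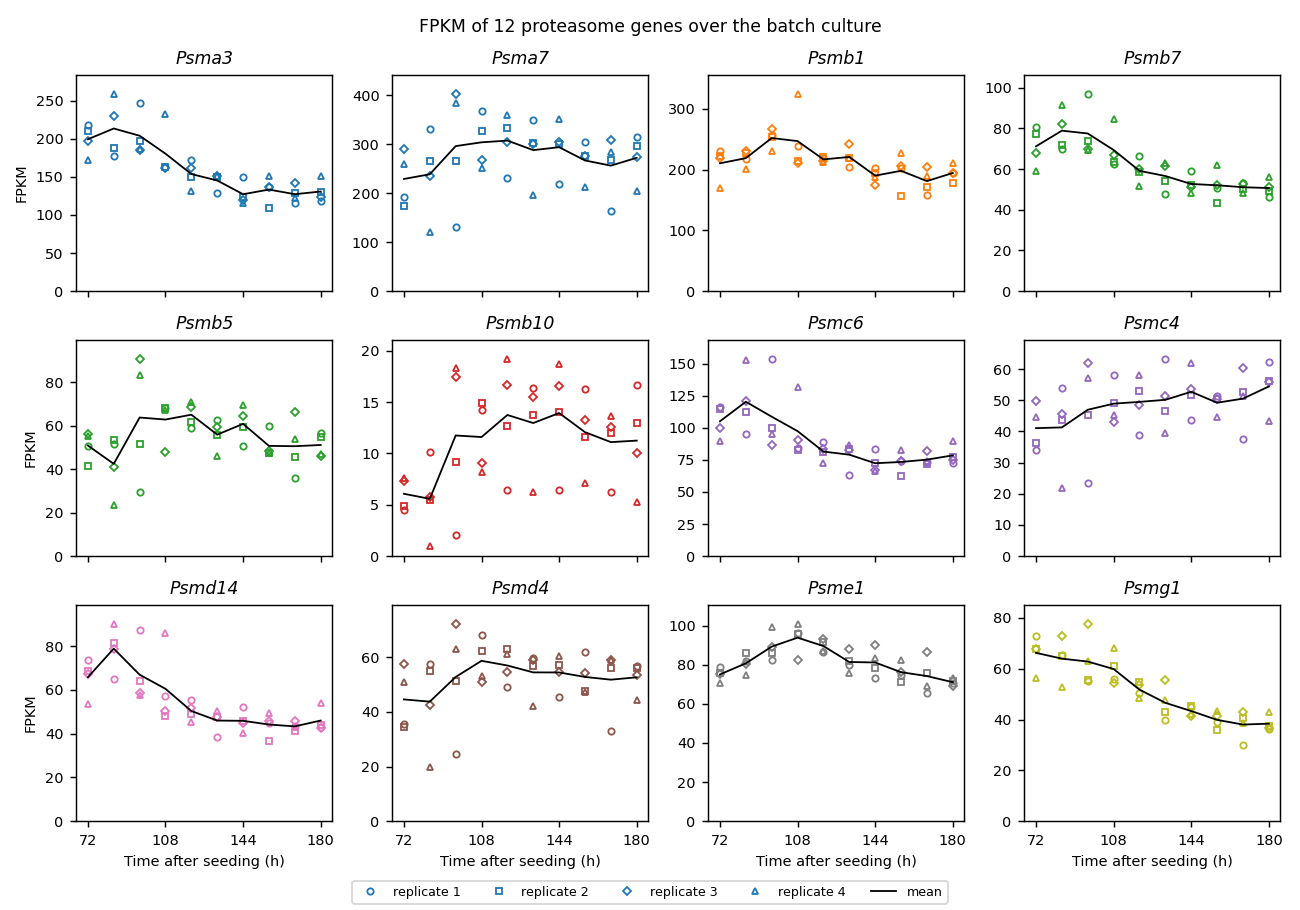
FPKM (y axis, from 0) against time after seeding (h, x axis) for 12 genes; open symbols are the 4 libraries of a time by replicate number and lines join the means. Psma3, Psmb7, Psmc6, Psmd14 and Psmg1 stood lower from 144 h on, Psme1 was highest at 108 h, and Psma7, Psmb5, Psmb10, Psmc4 and Psmd4 had their lowest of 40 values in replicate 4 of 84 h.

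The beta ring moved less. None of the 4 non-catalytic genes passed the test between 72 h and 180 h, and their log2 changes lay between -0.19 (Psmb4) and 0.12 (Psmb3). Psmb4 stood at 224, 237, 232 and 201 FPKM at 72 h and at 197, 189, 197 and 200.3 FPKM at 180 h, without overlap but with an adjusted p of 0.0671; leaving out replicate 4 of 72 h, replicate 4 of 84 h or replicate 1 of 96 h brought it to between 0.0300 and 0.0490. Psmb3 was 122 ± 13.9 FPKM at 72 h and 133 ± 14.9 FPKM at 180 h (SD, n = 4). Of the standard catalytic genes, the trypsin-like subunit Psmb7 fell. It stood at 80.8, 77.1, 68.1 and 58.8 FPKM at 72 h and at 46.2, 49.1, 51.3 and 56.1 FPKM at 180 h, with no overlap and a log2 change of -0.48 ± 0.12 (SE, adjusted p = 0.00133). The caspase-like subunit Psmb6 had a log2 change of -0.10 (95% interval -0.51 to 0.31) and the chymotrypsin-like subunit Psmb5 one of 0.01 (95% interval -0.47 to 0.49). Differences between subunits in their change were not tested.

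The 3 inducible catalytic genes varied widely between libraries of a time. Psmb10 stood at 4.53, 4.85, 7.31 and 7.59 FPKM at 72 h and at 16.7, 13.0, 10.0 and 5.32 FPKM at 180 h. The groups overlapped through replicate 4 of 180 h, and the log2 change was 0.72 ± 0.48 (SE, adjusted p = 0.213). Psmb8 stood at 7.19, 8.32, 14.3 and 13.99 FPKM at 72 h and at 20.01, 15.7, 16.2 and 7.71 FPKM at 180 h. Here too the groups overlapped, and the log2 change of 0.40 did not pass the test (adjusted p = 0.468). Psmb9 was 10.7 ± 3.69 FPKM at 72 h and 12.3 ± 4.68 FPKM at 180 h (SD, n = 4), with a log2 change of 0.16. All 3 had their lowest of 40 values in replicate 4 of 84 h, at 2.58 FPKM for Psmb8, 4.20 FPKM for Psmb9 and 0.976 FPKM for Psmb10.

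Each inducible subunit replaces 1 standard subunit, so their share of the pair was taken within each library. Psmb8 made up 17.4 ± 3.76% of Psmb8 plus Psmb5 at 72 h, 25.4 ± 5.63% at 132 h and 22.1 ± 5.62% at 180 h (SD, n = 4). Psmb9 made up 16.1 ± 3.15% of Psmb9 plus Psmb6 at 72 h, 24.4 ± 4.76% at 144 h and 19.1 ± 5.20% at 180 h. The share of Psmb10 in Psmb10 plus Psmb7 was 8.09 ± 2.95% at 72 h, 20.8 ± 7.81% at 144 h and 18.1 ± 7.54% at 180 h. Standard subunits thus made up most of each pair at every time on average. None of the log2 ratios passed an exact two-sided permutation test between 72 h and 180 h, in which 4 against 4 libraries cannot give less than 0.0286. The differences were 0.42 for Psmb8 (p = 0.257), 0.27 for Psmb9 (p = 0.457) and 1.29 for Psmb10 (p = 0.0857) in this exact test, and 0.386, 0.457 and 0.257 after adjustment over the 3 ratios.

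**Figure D3:**
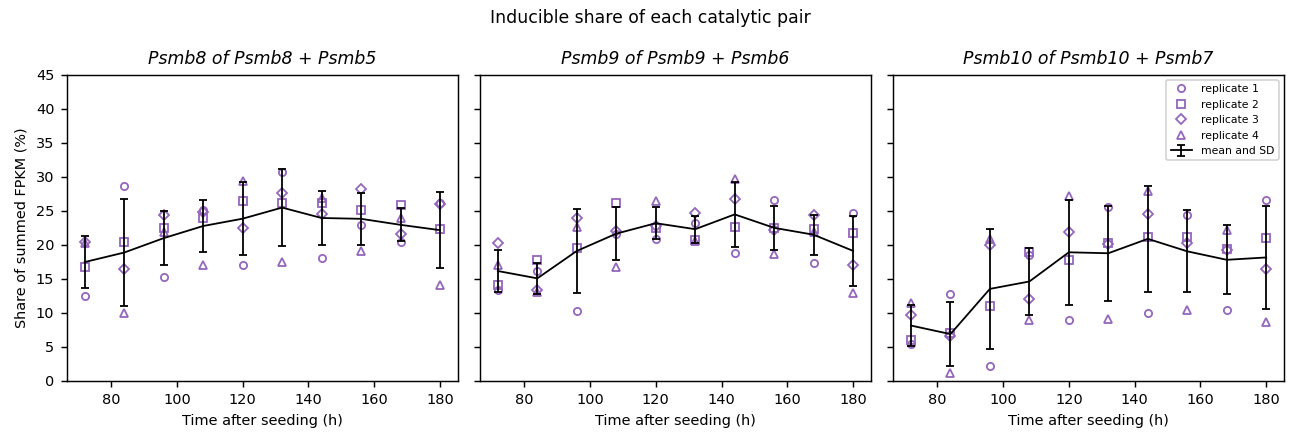
Share of the inducible subunit in the summed FPKM of each catalytic pair (%, y axis from 0) against time after seeding (h, x axis); open symbols are libraries, lines and bars the mean and SD of 4. Mean shares rose from 17.4, 16.1 and 8.09% at 72 h to at most 25.4, 24.4 and 20.8%, with libraries of a time spread over much of that difference.

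In the base, 3 of 6 ATPase genes fell, where 33.5% of all genes did, and none of these calls held with median-ratio scaling. Psmc6 stood at 116, 115, 99.7 and 89.6 FPKM at 72 h and at 72.2, 76.9, 74.9 and 90.0 FPKM at 180 h, where replicate 4 reached into the early range. Its log2 change was -0.41 ± 0.15 (SE, adjusted p = 0.0232). Psmc1 and Psmc2 fell by 0.28 and 0.29 on the log2 scale. Psmc4 had the estimate farthest above 0, with 33.9, 36.1, 49.7 and 44.5 FPKM at 72 h and 62.3, 56.2, 55.7 and 43.5 FPKM at 180 h. Those groups overlapped, and the log2 change of 0.40 ± 0.23 did not pass (adjusted p = 0.144). Psmc5 was nearly level, at 64.5 ± 1.63 FPKM and 62.2 ± 3.84 FPKM (SD, n = 4), with a 95% interval of the log2 change of -0.22 to 0.11. The scaffold subunit Psmd2 fell from 152 ± 5.25 to 133 ± 10.1 FPKM (adjusted p = 0.0442), while the ubiquitin receptor Psmd4 was 44.6 ± 11.4 FPKM at 72 h and 52.6 ± 5.80 FPKM at 180 h (adjusted p = 0.413, limma).

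In the lid, 5 of 7 genes fell, against 33.5% of all genes, with a median log2 change of -0.41 over the 7. Psmd14, the deubiquitinase that cleaves off the ubiquitin chain, stood at 73.7, 68.8, 67.3 and 53.5 FPKM at 72 h and at 43.3, 44.0, 42.6 and 54.1 FPKM at 180 h. Only replicate 4 of 72 h and replicate 4 of 180 h overlapped, and the log2 change was -0.50 ± 0.14 (SE, adjusted p = 0.00364). Psmd11, which braces lid and core, stood at 46.5, 49.4, 45.2 and 45.3 FPKM at 72 h and at 33.8, 34.4, 31.4 and 38.0 FPKM at 180 h. These groups were well apart, with a log2 change of -0.43 ± 0.07 (adjusted p = 2.67e-06). Psmd12 fell from 133 ± 8.22 to 97.2 ± 7.04 FPKM, Psmd6 from 71.2 ± 7.85 to 53.2 ± 5.63 FPKM and Psmd13, the member summed over 2 lines of the files, from 146 ± 13.2 to 125 ± 11.5 FPKM (SD, n = 4). Psmd7, the partner of Psmd14, was 91.2 ± 3.34 FPKM at 72 h and 90.7 ± 5.30 FPKM at 180 h, and the 95% interval of its log2 change ran from -0.13 to 0.11. For Psmd8 the interval was -0.31 to 0.19.

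Among the activators, Psme3 (PA28 gamma, a nuclear activator) stood at 43.4, 46.6, 46.1 and 46.0 FPKM at 72 h and at 36.1, 36.4, 35.4 and 36.0 FPKM at 180 h. Its groups were clearly apart and its log2 change was -0.33 ± 0.06 (SE, adjusted p = 7.53e-06). Of the interferon-inducible PA28 pair, Psme2 fell from 138 ± 9.57 to 111 ± 3.66 FPKM (SD, n = 4, adjusted p = 0.00384). Its partner Psme1 was 75.1 ± 3.33 FPKM at 72 h and 71.1 ± 1.66 FPKM at 180 h (adjusted p = 0.421). Psme4 (PA200) had a log2 change of -0.22 and the inhibitor Psmf1 one of 0.33, neither past the test (adjusted p = 0.170 and 0.220, limma).

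The assembly chaperones split. Psmg1 and Psmg2, which form a dimer that starts the alpha ring, both fell. Psmg1 stood at 73.0, 67.7, 67.7 and 56.5 FPKM at 72 h and at 36.2, 37.4, 36.7 and 43.0 FPKM at 180 h. The times did not overlap, and its log2 change of -0.77 ± 0.11 (SE, adjusted p = 9.13e-07) was the lowest estimate among the 45 genes that encode subunits, regulators or chaperones. Psmg2 fell from 57.2 ± 5.56 to 35.6 ± 4.83 FPKM (SD, n = 4) and the base chaperone Psmd10 (gankyrin) from 45.3 ± 8.40 to 27.3 ± 5.23 FPKM. The partner dimer had log2 changes of 0.03 (Psmg3, 95% interval -0.90 to 0.96) and 0.16 (Psmg4, 95% interval -0.38 to 0.70). The base chaperones Psmd5 and Psmd9 had changes of -0.04 and 0.41, and none of these 4 passed the test.

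Both genes that share only the name fell. Psmc3ip stood at 15.4, 13.8, 13.99 and 13.2 FPKM at 72 h and at 3.20, 3.01, 3.17 and 3.29 FPKM at 180 h, a log2 change of -1.86 ± 0.13 (SE, adjusted p = 1.42e-13). Its later libraries lay far below its early ones. Psme3ip1 fell from 30.6 ± 2.77 to 22.01 ± 2.88 FPKM (SD, n = 4, adjusted p = 0.000167). Without this pair, 22 of 45 genes fell, against 33.5% of all genes.

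**Figure D4:**
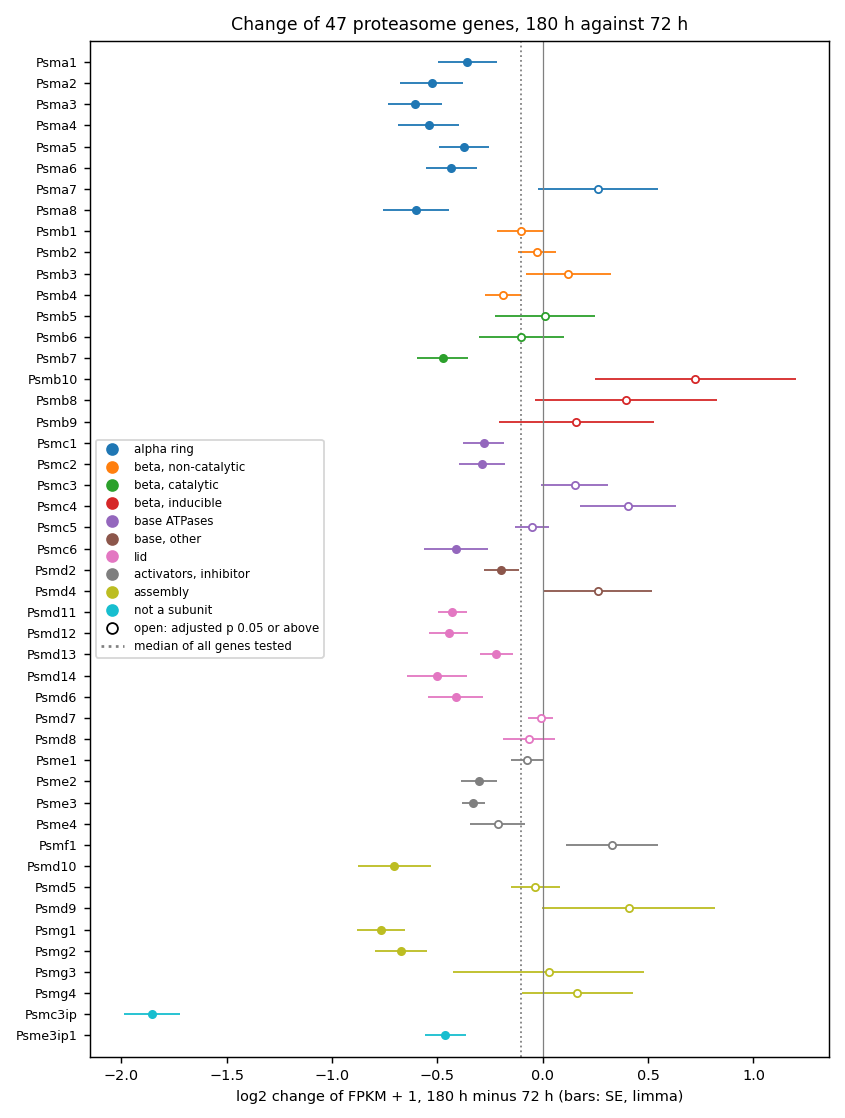
Log2 change of FPKM + 1 from 72 h to 180 h (x axis) for the 47 genes, coloured by role; bars are SE from limma, filled points have an adjusted p below 0.05 and the dotted line is the median of all genes, -0.10. All 24 filled points lie below 0.

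Of the 24 calls, 6 did not hold when single libraries were left out. Without replicate 1 of 72 h, Psma1, Psmc1, Psmc2, Psmc6, Psmd13 and Psmd2 missed the threshold and 18 members fell, against 3704 of all 12247 genes tested. Leaving out replicate 2 of 72 h or replicate 1, 2 or 3 of 180 h, and for Psmd2 also replicate 3 or 4 of 72 h, likewise ended some of these calls. The highest adjusted p over these fits was 0.130 for Psma1, 0.0658 for Psmc1, 0.0998 for Psmc2, 0.0732 for Psmc6, 0.0832 for Psmd13 and 0.150 for Psmd2. Median-ratio scaling ended the same calls and those of Psma5, Psma6, Psmd6 and Psme2.

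The change was also read in 3 windows of the culture. From 72 h to 108 h, Psmd11 and Psmc3ip fell and Psme1 rose, that is 2 and 1 of 47, against 11.2% and 7.46% of all genes. Psme1 stood at 78.6, 75.6, 75.5 and 70.6 FPKM at 72 h and at 96.4, 95.8, 82.5 and 101 FPKM at 108 h. Every 108 h library was above every 72 h library, with a log2 change of 0.32 ± 0.08 (SE, adjusted p = 0.00295). From 108 h to 144 h, 18 members (38.3%) fell and 0 rose, against 12.7% and 3.03% of all genes, and the median change was -0.27 for members and -0.06 for all genes. From 144 h to 180 h, 0 fell and 0 rose in limma, against 0.914% and 0.473% of all genes. At unadjusted p below 0.05, 2 were lower and 1 higher, near the shares of all genes (5.33% and 2.72%). The lowest adjusted p of a member was 0.117 (limma), for Psmc3ip. The mean of 25 members was highest at 72 h or 84 h, of which 20 at 84 h, and 28 had their lowest mean at 144 h or 168 h. The shares of all genes with such times are not given here.

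The 18 genes that fell from 108 h to 144 h were 5 of 8 of the alpha ring (Psma2 to Psma6), Psmb1, Psmb4, Psmb7, Psmc1, the lid genes Psmd6, Psmd11, Psmd12 and Psmd13, Psme3, Psmg1, Psmg2 and both name-only genes. Of these, 16 also fell from 72 h to 180 h. The other two, Psmb1 and Psmb4, were past the test in the middle window only. Psmb1 stood at 239, 215, 210.5 and 324 FPKM at 108 h and at 202, 195, 175 and 188 FPKM at 144 h. The groups did not overlap, but replicate 4 of 108 h was far above the rest, and the log2 change was -0.36 ± 0.11 (SE, adjusted p = 0.0267). Psmb4 fell from 244 ± 20.6 to 201 ± 5.53 FPKM (SD, n = 4, adjusted p = 0.0243).

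The count of 18 rested in part on single libraries. Without replicate 4 of 108 h, the lowest of its time on the within-time axis (-1.32), it was 6 (12.8%, against 6.57% of all genes), and these were Psma5, Psmc3ip, Psmd11, Psmd13, Psme3 and Psmg1. Without replicate 2 of 144 h it was 11, against 1034 of all 12251 genes tested in that fit. With median-ratio scaling it was 8, against 6.21% of all genes. Whether the middle window differed from the others was tested directly, as its change minus the mean of the changes before and after it. In limma, 0 members passed in either direction, against 0.00816% of all genes below and 0% above. At unadjusted p below 0.05, 14 members lay below and 0 above, against 4.37% and 1.14% of all genes. The lowest adjusted p of a member was 0.491 (limma).

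The members differed in how they moved along the within-time axis, which was computed without them. The 3 inducible genes moved with it by 0.44 to 0.59 log2 units per SD, Psmg3 by 0.56, Psmd9 by 0.51, Psma7 by 0.35 and Psmd4 by 0.30. Psma1 to Psma6 and Psma8 moved the other way, by -0.17 to -0.09, and so did Psmc6, by -0.17. Of the 15 members that moved up by more than 0.1 per SD, 0 fell and 0 rose from 72 h to 180 h. Of the 15 that moved down by more than 0.1, 13 fell, and of the 17 in between, 11 fell. Among all genes 33.5% fell and 15.8% rose. Shares of all genes split by this movement are not given here, so the pattern may not be particular to the members. Across the 47 genes, which are not independent and whose values on both sides come from the same libraries, this movement and the change from 72 h to 180 h had a Pearson r of 0.69 (Spearman 0.80), and for the change from 72 h to 108 h an r of 0.82 (0.78). For 108 h to 144 h the r was 0.78 (0.74), and for 144 h to 180 h it was negative, at -0.67 (-0.56). Since the times also differed along the axis, its part in these changes was not tested.

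**Figure D5:**
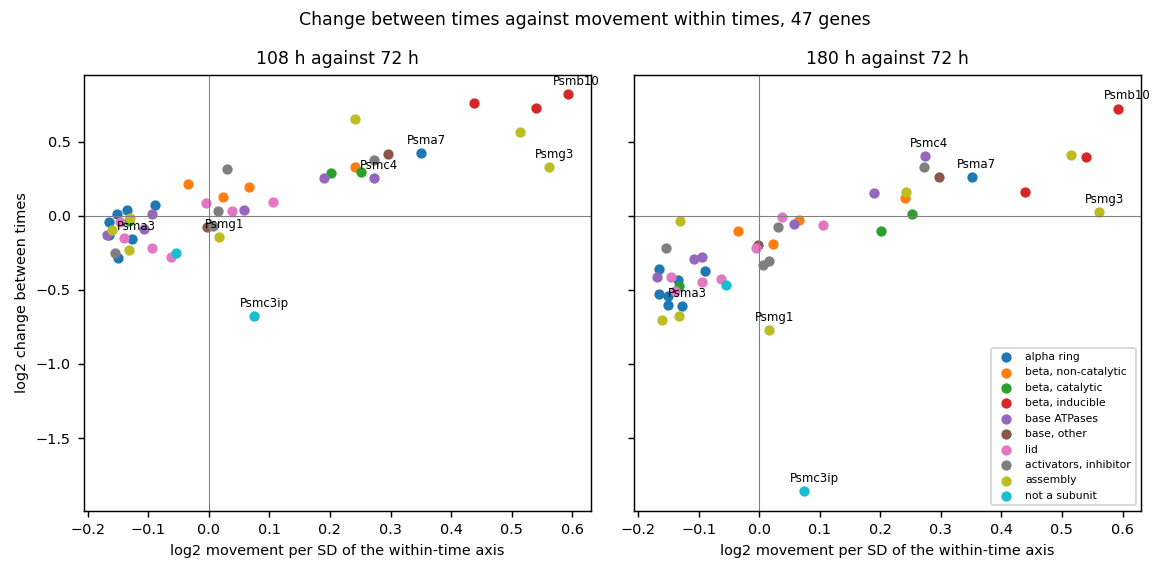
Log2 change between times (y axis) against log2 movement per SD of the within-time axis (x axis) for the 47 genes, coloured by role; the left panel shows 108 h against 72 h and the right panel 180 h against 72 h. The 15 genes right of 0.1 all have estimates above 0 on the left, and Psmc3ip lies apart from the rest at -0.68 and -1.86.

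With the axis as a covariate, an alternative chosen after seeing the data, the 24 genes that fell from 72 h to 180 h all remained, and 26 fell in all, against 40.9% of all genes. The covariate had the same mean at every time, so each estimate stayed as it was without it and only the spread changed. It could not adjust a difference between times, and the part of the axis in the falls was not tested. In the fit with the covariate 8 members rose, against 27.5% of all genes: Psma7, Psmb8, Psmb10, Psmc3, Psmc4, Psmd4, Psmd9 and Psmf1. The share of 8 in 47 is below that of all genes. The same 8 rose when libraries were weighted by their quality (limma array weights), where 27.6% of all genes rose and the estimate for Psma7 was 0.48 (adjusted p = 0.00897). Replicate 4 of 84 h held the lowest of 40 values for 14 members and the highest for 10, and replicate 1 of 96 h the highest for 7. How many of all genes had such extremes there is not given here. Without both libraries, 25 members fell and Psmc4 alone rose (adjusted p = 0.0250), against 36.3% and 19.7% of all genes.

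Partners of the proteasome outside the symbol rule were read from lists of known genes; Usp14, Paaf1 and Ddi2 were not analysed here. Among 8 measured subunits, assembly and docking factors, 4 fell from 72 h to 180 h and 0 rose, against 33.5% and 15.8% of all genes. These lists are small, and whether they differ from all genes was not tested. Uchl5, a proteasome-associated deubiquitinase, fell from 35.01 ± 3.15 to 19.03 ± 3.76 FPKM (SD, n = 4, adjusted p = 2.31e-05), although its receptor Adrm1 was 28.1 ± 8.52 FPKM at 72 h and 47.4 ± 13.7 FPKM at 180 h (adjusted p = 0.105). Ecpas, which ties proteasomes to membranes and motors, fell by 0.65, Akirin2, which carries proteasomes into the nucleus, by 0.54 and Fbxo7 by 0.26 on the log2 scale. Fbxo7 did not pass with median-ratio scaling, and Zfand5, a proteasome activator in mouse, passed only there (0.41, adjusted p = 0.0239). Sem1, the small lid subunit, and Pomp, the core assembly factor, had changes of 0.09 and 0.03.

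Of 6 genes that control subunit transcription, Nfe2l1 rose and Nfyb fell, where 15.8% of all genes rose and 33.5% fell. Nfe2l1 was 56.3 ± 5.09 FPKM at 72 h and 72.8 ± 6.36 FPKM at 180 h (SD, n = 4), a log2 change of 0.36 ± 0.12 (SE, adjusted p = 0.0111). Nfyb, a subunit of the CCAAT-binding factor NF-Y, fell from 27.4 ± 4.25 to 12.0 ± 2.52 FPKM (adjusted p = 1.10e-07). The other NF-Y subunits, Nfya and Nfyc, did not pass. With median-ratio scaling their log2 changes were 0.02 and 0.47 (adjusted p = 0.744 and 0.198, limma). Ngly1, which processes NFE2L1 protein, had a change of -0.07 and did not pass. These are transcript levels, and the NFE2L1 protein was not measured.

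On the supply of ubiquitin, 3 of 5 genes fell and 0 rose, against 33.5% and 15.8% of all genes. Rps27a, which encodes ubiquitin fused to a ribosomal protein, fell from 1426 ± 225 to 796 ± 59.0 FPKM (SD, n = 4, adjusted p = 2.2e-06), and the activating enzymes Uba6 and Uba1 fell by 0.51 and 0.34 on the log2 scale, the latter not with median-ratio scaling. Among 10 genes of p97 and the shuttle factors, 4 fell and 1 rose, which is near the shares of all genes (33.5% and 15.8%). Rad23b, a shuttle that brings ubiquitinated proteins to the proteasome, fell from 232 ± 6.68 to 147 ± 14.02 FPKM (adjusted p = 4.31e-08). Ubqln4, Vcp and Ubqln1 fell by 0.31, 0.26 and 0.25, of which Vcp and Ubqln1 did not pass with median-ratio scaling. Sqstm1, the autophagy receptor p62, rose from 59.4 ± 10.6 to 165 ± 19.8 FPKM (adjusted p = 2.27e-06). With median-ratio scaling Ufd1 and Nploc4, adaptors of p97, rose as well, by 0.40 and 0.27, and Nfe2l2 by 0.34.

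Of 6 measured partners of the immunoproteasome in antigen presentation, 2 rose and 0 fell from 72 h to 180 h, against 15.8% and 33.5% of all genes. B2m, the light chain of class I molecules, rose from 527 ± 74.6 to 1964 ± 129 FPKM (SD, n = 4), a log2 change of 1.91 ± 0.08 (SE, adjusted p = 2.63e-19). Tapbp, the peptide-loading chaperone, rose from 44.8 ± 8.81 to 159 ± 51.7 FPKM (adjusted p = 8.17e-05). The peptide transporter genes Tap1 and Tap2 had changes of 0.47 and 0.54 and did not pass (adjusted p = 0.177 and 0.249, limma). The interferon-response factor Irf1 had a change of -0.01 and did not pass, and Nlrc5, the class I transactivator, stayed at or below 0.0952 FPKM in all 40 libraries.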

How the data were processed

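The authors deposited FPKM per NCBI gene ID, 1 file per library; the submitters' processing notes name FastQC, Trimmomatic 0.32, SAMtools 1.0 and Cufflinks 2.2.1. Not given in the sources used here are the aligner, build, annotation and strand setting. FPKM of the lines of an ID were summed (634 IDs stand on more than 1 line; 23 lines with no ID, all 0, were dropped). Only symbols were taken from the RefSeq gene table of CriGri-PICRH-1.0, which held 23196 of the IDs, 15217 of them with a symbol. FPKM summed to 463992 to 575241 per library, and no pair of libraries was identical.

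The genes tested, 12259, reached 1 FPKM in 4 or more libraries. Values were taken as log2(FPKM + 1), a scale that understates the change of low genes. The limma package (3.58.1, R 4.3.3) fitted each time's mean, with trended, robust variance moderation and 30 residual degrees of freedom. Benjamini-Hochberg adjustment ran over all genes tested, and the threshold was 0.05. Changes are later minus earlier. The script was tested on simulated data. Ratios were tested with scipy 1.17.1. Named genes were those with the largest changes of each role and those past the test from 108 h to 144 h only; other members are described to complete their role. Members, gene lists and tests were chosen with earlier results of these data known. Alternatives were median-ratio scaling, other pseudocounts and filters, array weights, no trend, a replicate block, and leaving out libraries. Some genes of the lists are counted but not reported singly here.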

Additional observations from a re-analysis of the deposited data

Results flagged for a closer look

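Psmd14, the deubiquitinase of the lid, stood at 54.1 FPKM in replicate 4 of 180 h, while the other libraries of that time held 42.6 to 44.0 FPKM. The gap to the nearest library, divided by the range of the 4, was above Dixon's critical value of 0.829. It was the only such value among 48 groups of 4 libraries examined, and chance alone gives about 1 in 20 groups.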

How the results depend on the processing

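Median-ratio scaling left 14 members (29.8%) lower and 1 higher at 180 h than at 72 h, and 8 lower at 144 h than at 108 h. With that scaling 24.4% of all genes were lower and 2696 of 12245 higher at 180 h than at 72 h. At 144 h against 108 h, 6.21% of all genes were lower. Array weights gave 47 members that differed over the times, 17 lower and 14 higher at 108 h than at 72 h, 28 lower at 144 h than at 108 h, 8 higher at 180 h than at 72 h, and 2 lower and 1 higher at 180 h than at 144 h. Of all genes, 86.4% differed in that fit, and 27.4%, 28.0%, 25.3%, 27.6%, 5.76% and 2.64% passed in these comparisons. The within-time axis as a covariate, chosen after seeing the data, gave 46, 7 and 14, 31, 8, and 4 and 1 for the same counts, and 8 members whose middle window lay below the others. There the shares of all genes were 80.7%, 23.2% and 25.2%, 27.8%, 27.5%, 8.57% and 2.71%, and 1.88%. Both settings thus raised the calls of all genes as well. The covariate left every estimate as it was and changed only the spread. Without the pair of libraries farthest out, 3 members were higher at 108 h than at 72 h, 1 was higher at 180 h than at 72 h and 1 was lower at 180 h than at 144 h. Of all genes, 11.8%, 19.7% and 1.53% passed there. The causes of these differences were not tested.

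Leaving out single libraries gave 27 to 35 members that differed over the times, 18 to 25 lower at 180 h than at 72 h, 2 to 4 lower at 108 h than at 72 h (4 without replicate 4 of 108 h) and 6 to 25 lower at 144 h than at 108 h. Without replicate 4 of 84 h, which gave 25 in both comparisons, 4278 and 1749 of all 12241 genes tested were lower. The count of 18, without replicate 1 of 72 h, stood against 3704 of 12247 genes. The count of 6, without replicate 4 of 108 h, stood against 6.57% of all genes. Shares of all genes for the other ranges are not given here. The log2 ratios ranged from 0.23 to 0.67 for Psmb8, 0.10 to 0.48 for Psmb9 and 1.02 to 1.66 for Psmb10. Other counts did not move in these 40 fits, and no called change between 72 h and 180 h turned its direction under any alternative. Pseudocount 0.1, no trend, a filter of 5 FPKM and leaving out IDs on several lines ended no call at 180 h against 72 h among the members they tested; no filter ended Psma1 and Psmd2.

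With the replicate block, 23 members were lower at 180 h than at 72 h and 17 lower at 144 h than at 108 h, against 33.1% and 12.1% of all genes. This ended the calls of Psmd2 and Psme3ip1. The exact paired p of the ratios was 0.5, 0.625 and 0.25 (at least 0.125 with 4 pairs). The numbers were not taken to pair libraries: deviations of same-numbered libraries had a median r of 0.0096 (range -0.78 to 0.77), and 12 of 40 libraries matched best with their own number. Beside this median, replicates 1 and 4 alternated at the low end of the within-time axis from 84 h on, which a block for the number does not model. Depth is unknown in FPKM, so counting error could not be given for the low genes such as Psmb10 and Psmc3ip.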
